A study of Homo sapiens with 16 samples.

Results

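Insulin-like growth factor 2 (IGF2), its receptors, the adaptors that receptors pass signals to, and 4 of the proteins that hold IGFs outside the cell were followed through 16 RNA-seq libraries of a neuroblastoma cell line. The 10 genes were taken by symbol from the deposited gene table: IGF2, IGF1R, IGF2R, INSR, IRS1, IRS2, IGFBP2, IGFBP3, IGFBP4 and IGFBP5. They are 10 of 63187 genes in the table, and all 10 were among the 19530 genes that passed the filter on low counts. The cells were SK-N-BE(2), a human neuroblastoma line with amplified MYCN, and column names of the tables call the line BE2c. Every group shared this line and its culture at 21% oxygen with 10% serum. The 4 groups of 4 libraries were cells labelled WT, and cells transfected with full-length HIF-2α (FL), with NCTAD or with cIDR. The design text writes the last pair of forms ΔN-CTAD and Δc-IDR, the labels leave out the Δ, and neither gives the residues. HIF-2α, encoded by EPAS1, is the oxygen-regulated subunit of a hypoxia-inducible transcription factor. The vector, the time after transfection and an empty-vector control for WT are not stated in the labels, so transfection itself and HIF-2α cannot be told apart against WT.

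IGF2 is a secreted growth factor of fetal tissues and of many embryonal tumours, and its gene is imprinted. It acts mainly through the receptor tyrosine kinase IGF1R and through the insulin receptor, and both use IRS adaptor proteins to recruit PI3K and to feed AKT and mTOR. IGF2R takes IGF2 to lysosomes, and IGF-binding proteins (IGFBPs) hold IGFs in the medium until proteases release them.

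Each library held 38.6 to 56.1 M (mega) estimated counts. A batch label, 1 to 4, equals the replicate number, and each batch holds 1 library of every group. Nothing else says that replicates were separate cultures, so the p-values measure the spread between these samples, which may be technical. EPAS1 checked the labels only between WT and transfected libraries. It stood at 13.0 to 28.1 counts per 1 M counts (CPM) in WT and at 1319.7 to 5852 CPM in the 12 transfected libraries. Its mean was highest in cIDR (4484 ± 1739.6 CPM, SD, n = 4). FL, NCTAD and cIDR overlapped in CPM, so EPAS1 did not check which form a library carried. Of 9 adrenergic neuroblastoma markers, MYCN stood at 1778 to 2347 transcripts per 1 M transcripts (TPM) and TH, the first enzyme of catecholamine synthesis, at 0.926 to 11.2 TPM. The defining Schwann cell and blood cell genes were near 0, with SOX10 at most 0.0435 TPM and PTPRC at most 0.0202 TPM. Mitochondrial genes took 6.20% to 10.3% of counts in 15 libraries and 2.55% in FL of batch 4.

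Levels of different genes can be compared only on a scale corrected for transcript length, for which TPM was used. IGF2 led the 10 genes at 1435 ± 877 TPM (SD, n = 16), which placed it between rank 39 and rank 185 of all genes in a library. IGFBP2 followed at 326 ± 50.3 TPM and IGFBP4 at 144 ± 19.5 TPM, and each of these 3 was above the next in all 16 libraries. IGF2R came next at 25.0 ± 4.87 TPM. IRS2 (15.7 ± 1.89 TPM), IGFBP5 (15.3 ± 4.33 TPM) and IGF1R (14.8 ± 1.89 TPM) lay within each other's spread: IRS2 was above IGFBP5 in 4 of 16 libraries, and IGFBP5 above IGF1R in 11. INSR stood at 3.70 ± 0.584 TPM, above IRS1 (2.85 ± 0.447 TPM) in 15 libraries. IGFBP3 was the lowest at 1.18 ± 0.466 TPM, resting on 35 to 169 counts per library, so its values carry the most counting error. The ligand's transcript was above those of its receptors in every library, and IGFBP2 and IGFBP4 were the most abundant of the 4 binding proteins.

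**Figure D1:**
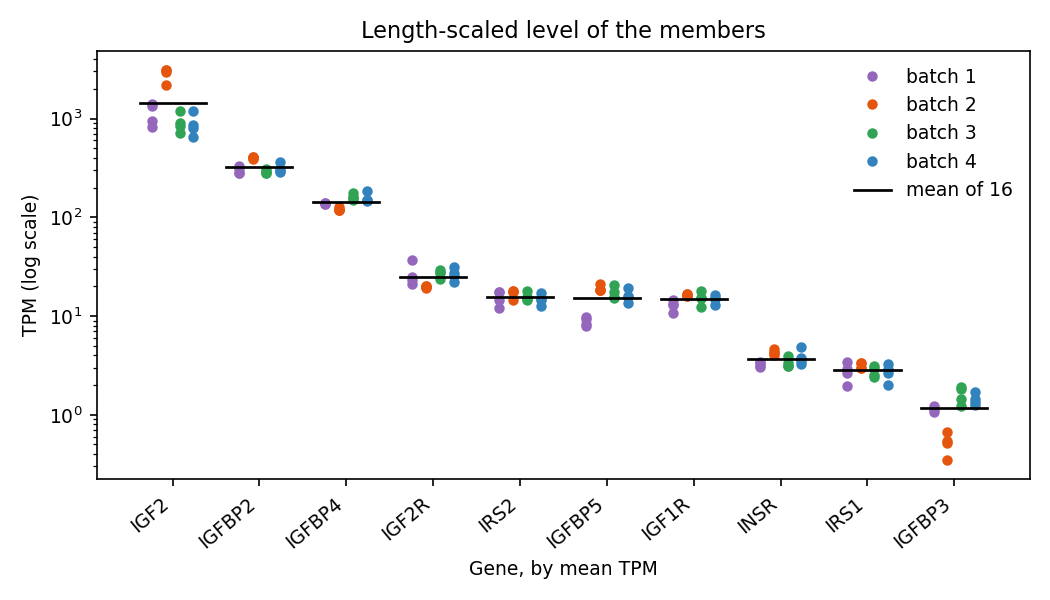
TPM (log scale) of the 10 genes in 16 libraries, 1 point per library coloured by batch, with the mean as a black line. IGF2 spans 657 to 3082 TPM with the batch 2 points on top, and the batch 2 points of IGFBP3 lie lowest.

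IGF2 lies on chromosome 11 (chr11:2129112-2149603, minus strand, GRCh38, GENCODE 29). In WT it stood at 2656, 6436, 1981 and 1854 CPM in batches 1 to 4. In FL the values were 2931, 8917, 2408 and 2135 CPM. In NCTAD they were 4661, 9250.4, 3628 and 3592 CPM, and in cIDR 4038, 9585, 2746 and 2696 CPM. In every batch the 3 transfected libraries were above the WT library, while between batches the groups overlapped, because the WT library of batch 2 was above all transfected libraries of the other batches. In batches 1, 3 and 4 the order was WT, FL, cIDR and NCTAD from low to high, and in batch 2 cIDR was above NCTAD. Batch accounted for 83.6% and group for 14.6% of the variance of IGF2 on the log2 CPM scale, where the medians over all tested genes were 53.8% and 7.85%.

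**Figure D2:**
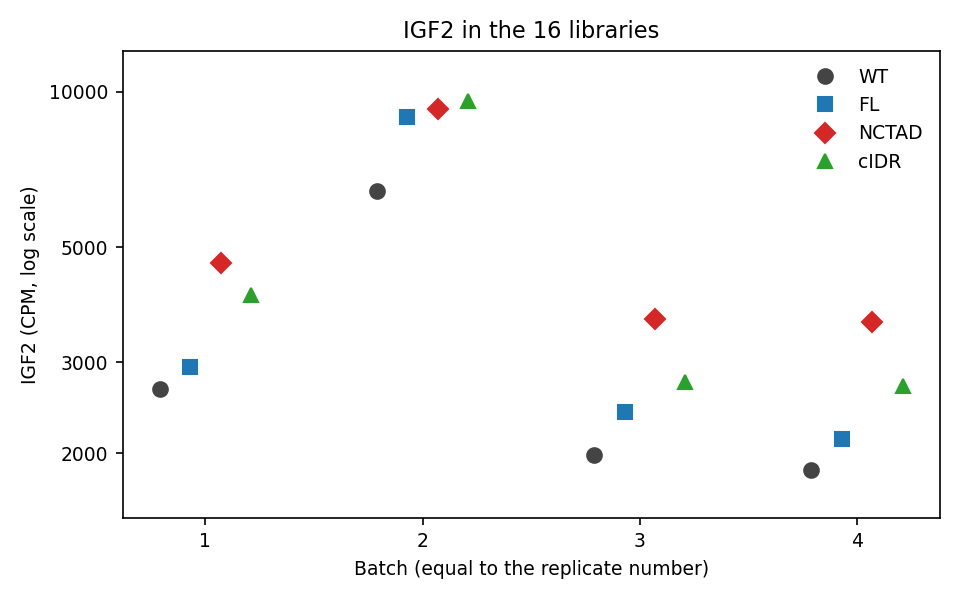
IGF2 in CPM (log scale) by batch, 1 point per library, with marker and colour for the group. The 4 batch 2 libraries lie between 6436 and 9585 CPM, above the other 12 (1854 to 4661 CPM), and within each batch WT is the lowest point.

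Within a batch, FL held 1.10, 1.39, 1.22 and 1.15 times the WT level of IGF2 in batches 1 to 4. NCTAD held 1.75, 1.44, 1.83 and 1.94 times the WT level. For cIDR the ratios were 1.52, 1.49, 1.39 and 1.45. All 12 ratios were above 1, with those of FL the lowest in each batch. On the TPM scale FL of batch 1 was below its WT library (828 against 933 TPM), and the other 11 transfected libraries remained above theirs. The 3 comparisons with WT share the same WT libraries.

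Against WT, the model with group as its only term called none of the 10 genes in FL, NCTAD or cIDR at an adjusted p under 0.05 (edgeR quasi-likelihood test, Benjamini-Hochberg over all tested genes). The background was as sparse: it called 0.0102% of tested genes in FL, 0.0256% in NCTAD and 0.0102% in cIDR. At an unadjusted p under 0.05 it gave 0 of 10 in each, and DESeq2 called 0 as well. For this and later counts at an unadjusted p, the share of all tested genes is not given, so they stand without a background. IGF2 differed from WT by 0.34 ± 0.55 (log2 fold change ± SE) in FL, 0.71 ± 0.55 in NCTAD and 0.56 ± 0.55 in cIDR, with an adjusted p of 1 in all 3 by that edgeR test. Leaving out the batch 2 library of the construct turned the direction in FL (-0.37) and in cIDR (-0.033), and gave 0.29 in NCTAD.

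With the batch as a replicate block, IGF2 rose in NCTAD by a log2 fold change of 0.80 ± 0.09 (adjusted p = 0.00035, edgeR) and in cIDR by 0.55 ± 0.09 (adjusted p = 0.0078, edgeR). It was higher than WT in 4 of 4 batches in both. This fit called 0.456% of all tested genes in NCTAD against WT and 0.486% in cIDR against WT, and IGF2 was the 1 member called in each. DESeq2 with the block also called IGF2 in NCTAD, but not in cIDR (log2 fold change 0.54, adjusted p = 0.066). Without batch 1, 3 or 4 the blocked edgeR fit no longer called IGF2 in cIDR, and without batch 2 it still did (0.53, adjusted p = 0.0055). For FL the blocked fit gave 0.28 ± 0.09 (adjusted p = 0.675, edgeR), where it called 0.102% of tested genes and 0 of the 10 members. An unadjusted p under 0.05 was found for 2 of the 10, without the share of all tested genes to set beside it. In the same blocked comparisons 1, 8 and 10 of 20 hypoxia genes were called higher in FL, NCTAD and cIDR and 0 lower, and 0, 2 and 2 of the 9 adrenergic markers were called higher. Of 2 tested blood or endothelial genes 0, 0 and 1 were called higher, the 1 being VWF in cIDR (1.65 ± 0.34, adjusted p = 0.0439, edgeR) at a mean of 0.515 CPM over all libraries. Of 5 fibroblast or mesenchymal and 3 Schwann cell genes tested, 0 were called in each. The part of these genes in the IGF2 values was not tested.

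Between the constructs no member was called, with the block or without it. Without the block edgeR called 0% of tested genes in all 3 of these comparisons, and with it 0% in NCTAD against FL, 0.0307% in cIDR against FL and 0.00512% in cIDR against NCTAD. DESeq2 also called 0 of 10. At an unadjusted p under 0.05 edgeR gave 1 of 10 members in NCTAD against FL and 0 in the other comparisons without the block, and 3, 3 and 1 with it. The share of all tested genes at that threshold is not given, so these counts are not read as a result. IGF2 in NCTAD was 1.59, 1.04, 1.51 and 1.68 times its FL level in batches 1 to 4, a blocked log2 difference of 0.52 ± 0.09 (adjusted p = 0.284, edgeR). With batch 2 left out that fit called it (0.68, adjusted p = 0.00691, edgeR), as it did without the batch 2 library of FL (0.61, adjusted p = 0.0319, edgeR) or of NCTAD (0.63, adjusted p = 0.00841, edgeR). In cIDR it was 1.38, 1.07, 1.14 and 1.26 times the FL level (0.27 ± 0.09) and 0.866, 1.04, 0.757 and 0.751 times the NCTAD level (-0.25 ± 0.09), with adjusted p-values of 1 by edgeR. EPAS1 and IGF2 were both higher in cIDR than in FL in 4 of 4 batches, and both higher in NCTAD than in FL in batches 1, 3 and 4. In batch 2 EPAS1 was lower in NCTAD than in FL in CPM (1319.7 against 2001 CPM). On the TPM scale these libraries were close, at 1899 TPM in NCTAD against 1950 TPM in FL. EPAS1 was higher in cIDR than in NCTAD in 4 of 4 batches, and IGF2 in batch 2 only. The part of the EPAS1 level in the IGF2 values was not tested.

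Of the receptors, IGF1R, the main signalling receptor for IGFs, varied least, from 107 to 135 CPM over all 16 libraries (chr15:98648539-98964530, plus strand). It stood at 120, 126, 131 and 131 CPM in WT, 128, 135, 127 and 131 CPM in FL, 107, 125, 121 and 115 CPM in NCTAD, and 120, 127, 113 and 116 CPM in cIDR. All 4 FL libraries were above all 4 NCTAD libraries in CPM, the only member whose groups did not overlap in a comparison of groups. Over all tested genes 0.707% had no overlap between these 2 groups, and edgeR called 0% with or without the block. NCTAD was below FL by a log2 difference of -0.16 ± 0.07 (adjusted p = 1, edgeR; with the block -0.16 ± 0.05, adjusted p = 0.996), lower in 4 of 4 batches in CPM. On the TPM scale NCTAD was lower in 3 of 4 batches (15.3 against 15.1 TPM for FL in batch 3) and the 2 groups overlapped, at 13.0 to 16.9 TPM in FL and 10.8 to 15.8 TPM in NCTAD. Against WT, NCTAD was lower in 4 of 4 batches on both scales. cIDR was lower than WT in 4 of 4 batches in TPM and in 2 of 4 in CPM. In both cases the groups overlapped in CPM, and edgeR did not call IGF1R with or without the block. Group accounted for 53.9% of the variance of IGF1R in log2 CPM and batch for 19.6%, a larger group share than for any other of the 10 genes.

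IGF2R, the receptor that clears IGF2 (chr6:159969099-160113507, plus strand), stood at 104, 101, 129 and 119 CPM in WT and 127, 109.8, 132 and 138 CPM in FL. NCTAD held 97.6, 107, 133 and 122 CPM, and cIDR 115, 96.3, 111 and 118 CPM. In CPM FL was higher than WT in 4 of 4 batches by 1.02 to 1.22 times (log2 difference 0.16 ± 0.11, adjusted p = 1, edgeR; with the block 0.16 ± 0.07, adjusted p = 0.92). On the TPM scale FL was higher in 2 of 4 batches only, with 19.6 against 20.4 TPM for WT in batch 2 and 27.8 against 29.2 TPM in batch 3. cIDR was lower than FL in 4 of 4 batches on both scales, at 0.845 to 0.905 times its level (-0.20 ± 0.11, adjusted p = 1, edgeR; with the block -0.20 ± 0.07, adjusted p = 1). The groups overlapped in both cases. INSR, the insulin receptor (chr19:7112255-7294034, minus strand), ranged from 18.9 to 26.5 CPM, with group means between 21.8 ± 1.87 CPM in WT and 23.7 ± 1.96 CPM in FL (SD, n = 4). On both scales INSR was higher in FL than in WT in 4 of 4 batches (1.02 to 1.21 times in CPM). It was lower in NCTAD than in FL in 4 of 4 (0.930 to 0.968 times in CPM). The groups overlapped in CPM, and edgeR called neither difference with or without the block.

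The adaptors IRS1 (chr2:226731317-226799759, minus strand) and IRS2 (chr13:109752698-109786568, minus strand) link both signalling receptors to PI3K. IRS1 stood at 19, 19.3, 20.2 and 17.2 CPM in WT, 12.5, 19.2, 15.97 and 17.9 CPM in FL, 15.3, 19.5, 15.9 and 19.4 CPM in NCTAD, and 17.4, 16.9, 16.9 and 12.9 CPM in cIDR. In CPM it was lower in cIDR than in WT in 4 of 4 batches (0.749 to 0.915 times) but the groups overlapped, and no fit called it. On the TPM scale cIDR of batch 2 was above its WT library (3.33 against 2.98 TPM). cIDR against NCTAD gave -0.13 ± 0.13 (adjusted p = 1, edgeR), lower in 2 of 4 batches. IRS2 ranged from 76.5 to 107 CPM, with group means between 88.5 ± 8.56 CPM in FL and 95.5 ± 8.90 CPM in WT. For both adaptors more of the variance lay between single libraries (56.7% and 65.0%) than with batch or group.

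Among the binding proteins, group means differed by less than the spread within groups. IGFBP2 (chr2:216632828-216664436, plus strand), a binding protein of fetal and neural tissue, had means of 223 ± 33.4 CPM in WT and 245 ± 30.4 CPM in FL, with NCTAD and cIDR between. IGFBP4 (chr17:40443461-40457731, plus strand), which mostly inhibits IGF action, had means from 209 ± 36.2 CPM in WT to 222 ± 36.7 CPM in FL. IGFBP5 (chr2:216672105-216695525, minus strand), which also binds matrix and neighbours IGFBP2, had means from 64.4 ± 16.9 CPM in NCTAD to 69.3 ± 21.1 CPM in WT. IGFBP3 (chr7:45912245-45921874, minus strand), the main IGF carrier of blood, had means from 1.78 ± 0.552 CPM in FL to 2.11 ± 0.924 CPM in NCTAD. Outside IGF2, the log2 differences of members against WT ran from -0.24 to 0.16 in the fit without the block. The median log2 difference of the 10 genes was 0.06, 0.02 and -0.02 in FL, NCTAD and cIDR against WT, beside 0.01, 0.02 and 0.01 over all tested genes.

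**Figure D3:**
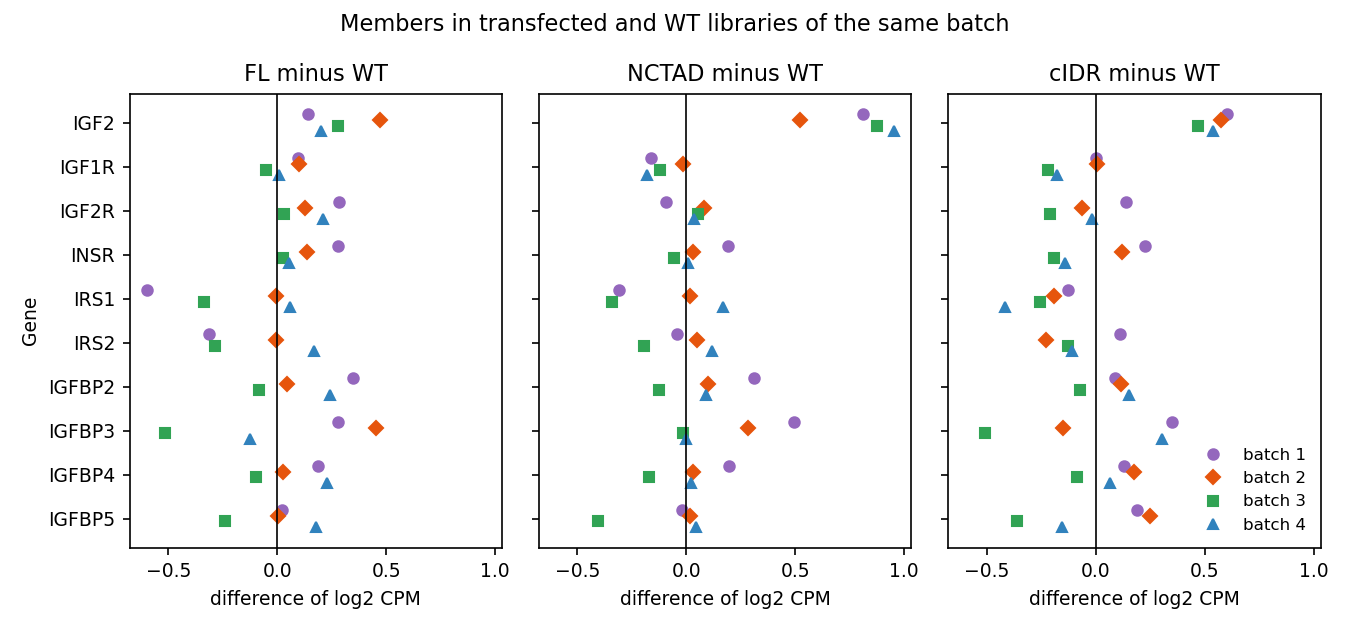
Difference of log2 CPM between each transfected library and the WT library of its batch (x axis) for the 10 genes (y axis), 1 panel per construct and 1 marker per batch. IGF2 is the gene with all 4 markers above 0 in every panel, from 0.14 to 0.47 in FL, 0.52 to 0.95 in NCTAD and 0.47 to 0.60 in cIDR.

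The larger contrast among these genes was between batches. Batch 2 against the mean of batches 1, 3 and 4, with group in the model, called 7 of the 10 genes, 4 higher and 3 lower, by the edgeR quasi-likelihood test. That contrast called 53.9% of all tested genes (27.7% higher and 26.1% lower), and the count of 7 of 10 is read against that share. Batch 2 is 1 batch, and these p-values measure the spread between libraries within batches. Batch 1 against its others called 1 of the 10 genes (24.7% of all), batch 3 called 6 (16% of all) and batch 4 called 2 (13.4% of all), but each of these contrasts counts the batch 2 libraries among its others and so shares them with the first. The median log2 difference of the 10 genes in batch 2 was 0.12, beside 0.03 over all tested genes.

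IGF2 rose in batch 2 by a log2 fold change of 1.58 ± 0.07 (adjusted p = 1.04e-10, edgeR). Its mean was 8547 ± 1434 CPM (SD, n = 4) there and 2944 ± 867 CPM (SD, n = 12) in the other batches, without overlap. The ratio of batch 2 to the other batches was 2.97 for WT, 3.58 for FL, 3.03 for cIDR and 2.34 for NCTAD, so the WT cells showed it too. IGF2 took 0.678% to 0.985% of all counts in batch 2 and 0.190% to 0.432% elsewhere. Against batch 1, 3 or 4 alone the log2 fold change was 1.29, 1.69 and 1.77, and these comparisons called 6 of the 10 genes each, beside 45.8%, 47.1% and 45.5% of all tested genes.

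IGFBP3 fell in batch 2 by a log2 fold change of -1.55 ± 0.17 (adjusted p = 2.84e-06, edgeR). The batch 2 libraries held 0.689 CPM (WT), 0.960 CPM (FL), 0.848 CPM (NCTAD) and 0.616 CPM (cIDR), on 35 to 49 counts, and at 1.67 to 3.09 CPM in the other 12 libraries. The 4 batch 2 libraries lay below all others. On log2(TPM + 1), which compresses low levels, the difference was -0.66. IGFBP4 fell as well, with -0.40 ± 0.05 (adjusted p = 1.09e-05, edgeR), from 229 ± 15.2 CPM (SD, n = 12) to 174 ± 9.74 CPM (SD, n = 4), again without overlap. IGFBP2 moved the other way, by 0.38 ± 0.05 (adjusted p = 3.35e-05, edgeR), from 219 ± 18.6 CPM to 284 ± 10.5 CPM, without overlap.

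IGFBP5 rose against the mean of the other batches by 0.41 ± 0.07 (adjusted p = 0.000265, edgeR), but this came with a low batch 1. It stood at 39.8 to 45.9 CPM in batch 1, 77 to 91.4 CPM in batch 2, 68.2 to 90.2 CPM in batch 3 and 62.7 to 78.9 CPM in batch 4. Against batch 3 alone the batch 2 difference was 0.09 (adjusted p = 0.466, edgeR) and against batch 4 alone 0.19 (adjusted p = 0.108, edgeR). Batch 1 against its others fell by 0.86 ± 0.08 on the log2 scale (adjusted p = 1.19e-05, edgeR), the 1 member called there.

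The receptors moved less. INSR rose in batch 2 by 0.24 ± 0.05 (adjusted p = 0.00124, edgeR), with 24.1 to 26.5 CPM there and 18.9 to 23.7 CPM in the other 12 libraries. IGF2R fell with -0.22 ± 0.05 (adjusted p = 0.00349, edgeR), from 120 ± 12.1 CPM to 103 ± 6.03 CPM, and the groups overlapped in CPM. Against batch 1 alone IGF2R differed by -0.10 (adjusted p = 0.24, edgeR), and on log2(TPM + 1) the whole contrast was -0.40. IGF1R (0.08 ± 0.04), IRS1 (0.17 ± 0.10) and IRS2 (0.08 ± 0.07) were not called. In all, 5 of the 10 genes, IGF2, INSR, IGFBP2, IGFBP3 and IGFBP4, had batch 2 libraries that did not overlap the other 12 in CPM. On the TPM scale INSR overlapped (4.02 to 4.65 TPM in batch 2, with cIDR of batch 4 at 4.90 TPM), and IGF2R did not (19.2 to 20.4 TPM against 21.2 to 37.1 TPM). Over all tested genes 29% had no such overlap in CPM, and the contrast called 53.9%.

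**Figure D4:**
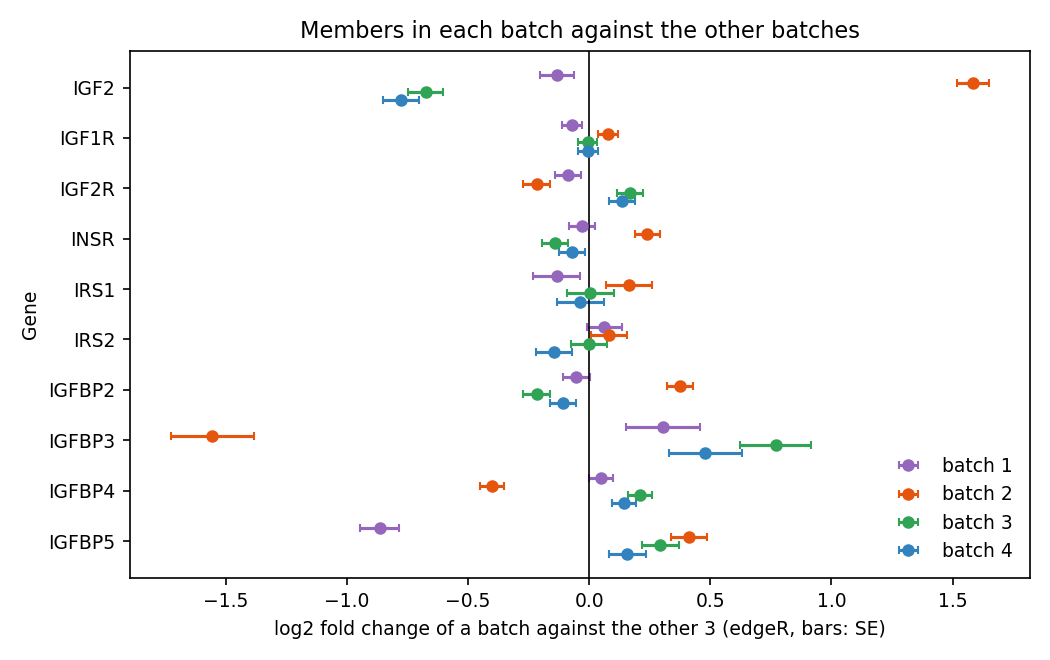
Log2 fold change of each batch against the mean of the other 3 (edgeR, group in the model; bars are SE) for the 10 genes, 1 colour per batch. Batch 2 lies at 1.58 for IGF2 and -1.55 for IGFBP3, and batch 1 at -0.86 for IGFBP5.

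**Figure D5:**
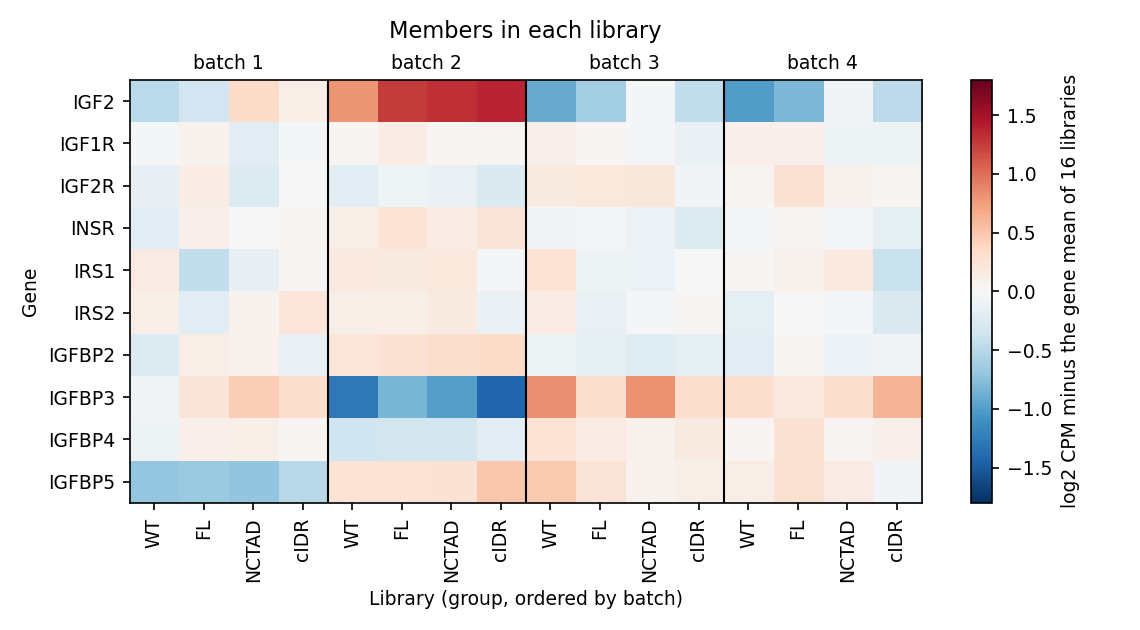
Log2 CPM of the 10 genes in each of 16 libraries minus the gene's mean over the 16, with libraries ordered by batch and group. The block of 4 batch 2 columns is high for IGF2 and low for IGFBP3, and the 4 batch 1 columns are low for IGFBP5.

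Other measures moved with batch 2, where these counts stand beside 27.7% of all tested genes called higher and 26.1% called lower. Of 20 hypoxia genes, 18 were called higher in it and 0 lower, with a median log2 difference of 1.09 beside 0.03 over all tested genes, although the labels give 1 oxygen level for all libraries. Their summed level was 1765 to 2391 TPM in batch 2 and 834 to 1107 TPM in the other batches. Summed markers of fibroblasts or mesenchymal cells were also higher, at 107 to 111 TPM against 45.6 to 60.5 TPM, with 4 of 5 tested called higher. Of the adrenergic markers 4 were higher and 3 lower, and 1 of 3 tested Schwann cell and 1 of 2 tested blood or endothelial genes were higher. PDGFRB, LUM and DCN made up most of that sum, while the collagen genes COL1A1, COL1A2 and COL3A1 were at most 1.95, 0.125 and 0.184 TPM. EPAS1 in the transfected libraries was 1319.7 to 2189 CPM in batch 2 and 1691 to 5852 CPM elsewhere. In WT it was highest in batch 2, at 28.1 CPM against 13.0, 17.3 and 14.3 CPM in batches 1, 3 and 4. The part of hypoxia genes, of these markers or of EPAS1 in the values of IGF2 and the IGFBPs was not tested. In bulk RNA, fewer cells of a type and less RNA per cell cannot be told apart.

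Promoter sequence was read for all members in the table, because HIF factors bind the core letters ACGTG or GCGTG. RefSeq (GRCh38.p14) gave the 250 bases before the start of 9 of the 10 genes, all but IGF2. Searched on both strands, ACGTG was in 18.5%, GCGTG in 32.2% and either in 43.2% of 35116 promoters of that length, and in 2, 4 and 5 of the 9 members. IGF2R (chr6:159968832-159969081, plus strand) held CACGTG 3 times, a palindrome that contains ACGTG on both strands and that 6.34% of promoters hold. IGFBP3 (chr7:45921273-45921522, minus strand) held GCGTG 3 times, once on the opposite strand. IGFBP2 (chr2:216633170-216633419, plus strand; the start nearest to the main annotated one, of 3 in the table) held GCGTG once, and IGFBP5 (chr2:216695550-216695799, minus strand) held neither. These 4, all called in batch 2, are shown 5′ to 3′, with motif letters in capitals (CACGC is GCGTG on the opposite strand).
IGF2R: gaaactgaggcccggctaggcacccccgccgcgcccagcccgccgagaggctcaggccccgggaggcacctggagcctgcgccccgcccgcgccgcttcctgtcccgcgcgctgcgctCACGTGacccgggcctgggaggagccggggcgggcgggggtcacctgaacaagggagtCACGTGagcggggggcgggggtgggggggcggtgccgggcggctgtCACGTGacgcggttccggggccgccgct
IGFBP3: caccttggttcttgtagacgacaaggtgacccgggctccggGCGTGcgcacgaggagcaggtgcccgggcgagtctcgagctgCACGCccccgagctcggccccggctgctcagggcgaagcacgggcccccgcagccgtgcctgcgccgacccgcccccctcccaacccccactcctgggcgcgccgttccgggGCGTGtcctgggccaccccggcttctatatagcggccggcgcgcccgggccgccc
IGFBP2: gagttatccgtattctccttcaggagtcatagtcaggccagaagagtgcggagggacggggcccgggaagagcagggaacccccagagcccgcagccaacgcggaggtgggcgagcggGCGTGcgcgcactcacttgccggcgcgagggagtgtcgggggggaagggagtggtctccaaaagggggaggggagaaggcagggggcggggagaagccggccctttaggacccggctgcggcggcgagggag
IGFBP5: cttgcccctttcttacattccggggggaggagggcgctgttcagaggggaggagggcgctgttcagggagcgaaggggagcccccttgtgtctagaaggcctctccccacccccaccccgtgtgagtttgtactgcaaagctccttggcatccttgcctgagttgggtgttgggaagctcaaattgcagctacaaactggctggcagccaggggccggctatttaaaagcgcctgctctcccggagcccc
Of the called members in the table, IGF2R and IGFBP3, which fell in batch 2, and IGFBP2, which rose, held a core, while IGFBP4, which fell, and INSR and IGFBP5, which rose, held none in this window. The other members with a core were IGF1R, which held ACGTG 1 time and GCGTG 4 times, and IRS1, which held GCGTG 1 time, and neither was called. A match is a description of the letters and marks no binding.

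Beside IGF2, the locus holds an antisense and a noncoding neighbour. IGF2-AS, on the opposite strand (chr11:2140501-2148666), stood at 31.5, 32.7, 26.8 and 23.8 CPM in WT and at 48.1, 41.8, 35.0 and 36.2 CPM in NCTAD. Like IGF2 it was above the WT library in 4 of 4 batches in FL, NCTAD and cIDR, and edgeR called it higher in NCTAD with the block (0.49 ± 0.06, adjusted p = 0.00168). Against the mean of the other batches it was called higher in batch 2 by 0.18 ± 0.05 (adjusted p = 0.00706, edgeR), but batch 1 held the highest mean, with 41.4 CPM beside 37.9, 30.0 and 30.4 CPM in batches 2, 3 and 4. The library kit keeps strand, but whether counting used it is not stated, so reads of IGF2 and IGF2-AS may not be told apart. H19, the imprinted noncoding neighbour (chr11:1995176-2001470), rose in batch 2 by 2.33 ± 0.17 (adjusted p = 4.18e-08, edgeR), from 0.417 to 1.97 CPM in 12 libraries to 4.54 to 6.68 CPM. It too was above WT in 4 of 4 batches of each construct in CPM (in 3 of 4 in FL and in cIDR on the TPM scale), on 19 to 368 counts per library, and edgeR did not call it in any comparison with WT. INS-IGF2, a read-through transcript, held 0 to 29 counts per library, and INS 0 or 1.

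Among 15 further IGF system genes, 8 were tested. Without the block edgeR called 0 of 8 against WT in each construct (with an unadjusted p under 0.05 for 0 in FL, 1 in NCTAD and 0 in cIDR), and with it IGF2-AS in NCTAD. The median log2 difference was 0.06, 0.08 and 0.09 in FL, NCTAD and cIDR, beside 0.01, 0.02 and 0.01 over all tested genes. In batch 2, H19 was called higher, IGF2-AS was called higher against the mean of the other batches but was below batch 1, and IGFBP7 (-0.69 ± 0.05, adjusted p = 6.09e-08, edgeR) and IGFBPL1 (-0.39 ± 0.04, adjusted p = 2.59e-06, edgeR) were called lower, with a median of 0.11 over the list. These 4 of 8 stand beside 53.9% of all tested genes called in that contrast, whose median was 0.03. Of 9 proteases that cut IGFBPs and their inhibitors, 7 were tested and 0 were called against WT by edgeR without the block, with 0 at an unadjusted p under 0.05. With it STC1, a stanniocalcin that inhibits the IGFBP4 protease PAPP-A, rose in NCTAD (0.80 ± 0.11, adjusted p = 0.0022, edgeR) and in cIDR (0.91 ± 0.11, adjusted p = 0.000845, edgeR). In batch 2 all 7 were called, 4 higher and 3 lower, with a median of 0.30, beside 27.7% higher, 26.1% lower and a median of 0.03 over all tested genes. STC2, a related PAPP-A inhibitor, rose by 1.84 ± 0.04 (adjusted p = 6.35e-13, edgeR), STC1 by 1.44 ± 0.08 (adjusted p = 2.99e-09, edgeR) and PAPPA2, a protease of IGFBP3 and IGFBP5, by 3.53 ± 0.24 (adjusted p = 2.17e-08, edgeR) from a mean of 0.644 CPM over all libraries.

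Downstream, 33 of 36 adaptor, PI3K, AKT and mTOR genes were tested, and edgeR called 0 against WT without the block, with 0 at an unadjusted p under 0.05. With the block DDIT4, an mTORC1 inhibitor, rose in cIDR (0.31 ± 0.05, adjusted p = 0.0105, edgeR), and no other gene of the list was called against WT. The medians were -0.04, 0.02 and -0.03 in FL, NCTAD and cIDR. In batch 2, 12 of the 33 were called higher and 11 lower, with a median of -0.03, beside 27.7% higher, 26.1% lower and a median of 0.03 over all tested genes. The 3 smallest p-values belonged to DDIT4 (2.85 ± 0.04, adjusted p = 5.81e-16, edgeR), SESN2, a stress-induced mTORC1 inhibitor (2.13 ± 0.05, adjusted p = 2.39e-13, edgeR), and FOXO4, a transcription factor that AKT inhibits (0.88 ± 0.06, adjusted p = 2.31e-08, edgeR).

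The 5 genes whose log2 CPM most resembled IGF2 over the 16 libraries were RTL1 (r = 0.985), ARID3A (0.983), MOB3A (0.977), MYADM (0.975) and ARID3B (0.975), by Pearson's r as a measure of likeness. The 16 points share their batches and fall into batch 2 and the rest, and the part of batch in these coefficients was not tested. RTL1 had a mean log2 CPM of 7.20 in batch 2 and 5.40 elsewhere, and MYADM 5.71 and 5.23.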

How the data were processed

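RNA was sequenced from 16 libraries of an established cell line, 4 in each of 4 groups, which follow the sample labels. In the tables' column names WT stands for libraries labelled FL, and CTRL for those labelled WT. The table of estimated counts was deposited by the authors as Salmon's merged gene-level output, judged by its name, and is unscaled. TPM values (transcripts per 1 M transcripts) were deposited beside it by the authors, corrected for length and with equal sums per library. The submitters' processing notes also name fastp, STAR, featureCounts and GRCh38, with no role. The annotation release, filters and strand setting are not given in the sources used here, so genes were placed by GENCODE 29 through their identifiers.

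Because 15.5% of estimated counts were fractional, all were rounded to whole numbers. Low genes were removed with filterByExpr by group. In R 4.3.3, edgeR 4.0.16 ran its quasi-likelihood test after TMM scaling, in 1 model over 16 libraries, with Benjamini-Hochberg adjustment at 0.05. Library sizes for CPM were TMM-scaled, and a prior count of 2 was added for log2 CPM. Dividing the log2 fold change by the square root of F gave the SE. The biological coefficient of variation was 0.245 without and 0.108 with the batch as a replicate block. The labels set the batch equal to the replicate number, so the numbers pair libraries: within a batch, deviations from group means had a mean r of 0.308 over genes (0.0674 to 0.712), and between batches -0.151. Taking out group means by itself pushes the r between batches down, so that value is no separate sign of pairing. No pair of replicates agreed within sampling noise (chi-square per degree of freedom at least 6.71). Batches were compared in a model with batch and group. The members and lists were chosen with earlier results of these data known.

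A fold change, SE and adjusted p were given for members called with or without the block, for the 2 smallest blocked p-values where none was called, and for list genes by up to 3 smallest p-values. Alternatives were the block, DESeq2 1.42.0, other scaling and filters, limma 3.58.1 on log2(TPM + 1) and log2(TPM + 0.1), only the libraries compared, each library or batch left out, and batch 2 against single batches. Leaving out batch 2 without the block was added after seeing the data. The edgeR script was tested on simulated data. Promoters came from RefSeq (GRCh38.p14), and figures from matplotlib 3.10.9 in Python 3.11.15.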

Additional observations from a re-analysis of the deposited data

Results flagged for a closer look

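In 40 sets of 4 libraries (10 genes in 4 groups), 6 had 1 library whose gap to the nearest other took a share of the set's range (the gap ratio) above Dixon's critical value for 4 values. Chance flags about 1 in 20 sets when sets are independent and libraries differ only by noise. The 40 sets share the same batches, so that rate does not measure these flags. Of the 6, 3 were batch 2 libraries. IGFBP5 in FL was lowest in batch 1 (gap ratio 0.950), at 40.9 CPM against 76.4 to 78.9 CPM. IGFBP3 was lowest in batch 2 in FL (0.892), at 0.960 CPM against 1.97 to 2.15 CPM, and in cIDR (0.847), at 0.616 CPM against 2.14 to 2.66 CPM. IGFBP4 in NCTAD was lowest in batch 2 (0.875), at 169.9 CPM against 221 to 229.7 CPM. IRS1 in cIDR was lowest in batch 4 (0.899), at 12.9 CPM against 16.9 to 17.4 CPM. IRS2 in WT was lowest in batch 4 (0.841), at 82.3 CPM against 98.6 to 102 CPM.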

How the results depend on the processing

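Of 482 values of named members under other settings, 444 kept their direction and side of the threshold, 27 passed it, 3 lost it and 8 reversed, and of 206 counts of called members 179 stayed and 27 moved. The count rose from 0 to 1 (IGF2) in NCTAD against WT with the replicate block, with DESeq2 and the block, and with the block without batch 1, 2, 3 or 4. It rose to 1 in cIDR against WT with the block and with the block without batch 2, and in NCTAD against FL with the block without batch 2. The block changed no other call. With the block and 1 library left out the count was 1 throughout in NCTAD against WT (adjusted p 1.91e-05 to 0.00525, edgeR) and cIDR against WT (0.0207 to 0.0479, edgeR), and 0 to 1 in NCTAD against FL, where leaving out FL replicate 2 or NCTAD replicate 2 gave 1. Without the block, leaving out 1 library moved the log2 fold change of IGF2 from -0.37 to 0.92 in FL against WT, -0.033 to 1.14 in cIDR against WT, 0.29 to 1.29 in NCTAD against WT, -0.048 to 1.08 in NCTAD against FL, -0.37 to 0.93 in cIDR against FL and -0.74 to 0.27 in cIDR against NCTAD. All 5 ranges that cross 0 do so without a batch 2 library of the first-named group or, in cIDR against NCTAD, without NCTAD replicate 2, cIDR replicate 3 or cIDR replicate 4. IRS1 in cIDR against NCTAD reversed to 0.021 with the block without batch 4. The causes were not tested. In batch 2, 6 to 8 members were called in all settings, and 7 with any 1 library left out. IGFBP3, at 35 to 169 counts, is limited most by depth.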
